A study of Homo sapiens with 6 samples.

Results

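Collagens and laminins are the chains from which the fibrils and sheets of the extracellular matrix are built. The genes described here are all rows of the count files whose name is COL, a number, A and a number, or LAM, a letter from A to C and a digit, with no row described as a pseudogene. The rule gave 56 of 50868 genes, of which 44 encode collagen chains and 12 laminin chains. They were sorted into 11 fibrillar collagens, 8 basement membrane collagens, 25 other collagens and the 12 laminins. Their RNA was measured by RNA sequencing in DU145, a human prostate cancer cell line that grows without androgen. One group is titled siRCC2, which names a small interfering RNA against RCC2, and its genotype is labelled RCC2 knockdown. The other is titled siCtrl, which names a control siRNA, and is labelled RCC2 wild type. Each group had 3 libraries, all from this 1 line. The series title places RCC2 in the growth and migration of these cells through Hedgehog and GLI1 signalling. Neither the siRNA sequences nor the time after transfection are given in the sources used here. Whether the 3 libraries of a group were separate cultures is not stated, so each p-value reflects the spread among these libraries only.

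As background, a collagen molecule is a triple helix of 3 chains, which may come from 1 gene or from several. Fibrillar collagens pack into the cables of connective tissue, while type IV collagen forms the flexible network of basement membranes, the thin sheets under epithelia. Laminins are cross-shaped trimers of an alpha, a beta and a gamma chain, named by their chain numbers, and they form the second network of the basement membrane. Epithelial cells hold on to it through laminins that hold the products of LAMA3 and LAMB3, and through laminin-511, made of those of LAMA5, LAMB1 and LAMC1. Normal prostate glands rest on such a membrane.

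Total counts ran from 17377191 to 19895431 in the siRCC2 libraries and from 18206357 to 19808215 in the siCtrl libraries. Levels are given as CPM, the count of a gene over the total of its library scaled by the TMM method. RCC2 itself had 59.3, 57.6 and 54.8 CPM in siRCC2 replicates 1 to 3, against 198, 194 and 191 CPM in siCtrl replicates 1 to 3. It fell by 1.76 on the log2 scale with an SE of 0.07 (edgeR adjusted p = 2.00e-05). All 5 epithelial markers examined were expressed, with summed levels from 2702 to 3231 CPM in siRCC2 and from 4340 to 4552 CPM in siCtrl, 3 of them rising and 2 falling, KRT7 among those that fell. Of 5 androgen-dependent luminal markers, KLK2 was at 0 counts in all libraries. The 7 fibroblast markers summed to between 0.302 and 0.979 CPM in siRCC2 and between 0.794 and 1.19 CPM in siCtrl, with LUM and POSTN at 0. The 5 endothelial markers summed to between 0.315 and 0.824 CPM in siRCC2 and between 0.943 and 1.46 CPM in siCtrl, with TIE1 at 0. PTPRC, CD3E and TYROBP, of the 5 leukocyte markers, had 1 count among them over all libraries. CD14 of the same list had 49, 63 and 36 counts in siRCC2 and 77, 69 and 69 in siCtrl. Its level was 2.70 ± 0.717 CPM in siRCC2 and 3.70 ± 0.134 CPM in siCtrl (edgeR adjusted p = 0.145). The 5 smooth muscle and pericyte markers, in 6 rows, summed to between 4.29 and 7.24 CPM in siRCC2 and between 5.31 and 6.85 CPM in siCtrl. Among them ACTA2 fell, with 0.352 ± 0.200 CPM in siRCC2 and 1.75 ± 0.132 CPM in siCtrl (edgeR adjusted p = 0.00347). RGS5 has 2 rows, of which 1 rose, with 3.66 ± 0.555 CPM in siRCC2 and 1.85 ± 0.312 CPM in siCtrl (edgeR adjusted p = 0.00870). The other RGS5 row did not pass (edgeR adjusted p = 0.475). The part of these marker differences in the results was not tested. In these bulk samples a change in the cells that express a gene and a change in RNA per cell cannot be told apart. On the second principal component of the tested genes, siRCC2 replicate 1 lay apart (41.5, against -13.3 and -35.2 in siRCC2 replicates 2 and 3).

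Most of the tested basement membrane collagens rose in siRCC2, and laminins moved in both directions. Of the 56 genes, 37 had enough counts to be tested. At an edgeR adjusted p under 0.05, 15 of them rose, 8 fell and 14 did not pass. Among all 16536 genes tested, 20.7% rose and 21.1% fell, 41.8% in all, so that the 23 called among 37 (62.2%) stood beside that share. The median log2 fold change was 0.08 over the 37 genes and -0.02 over all tested genes. By class, 5 of 6 tested basement membrane collagens rose and 0 fell, 4 of 7 fibrillar collagens rose and 1 fell, 2 of 14 other collagens rose and 4 fell, and 4 of 10 laminins rose and 3 fell. The genes that were tested passed a filter on low counts, so these counts do not describe the 19 that were not. In 27 of the 37 genes all values of siRCC2 lay on one side of those of siCtrl, against 55.4% of all tested genes. Changes of at least 2-fold were called in 7 of the 37, against 12.1% of all tested genes. Without siRCC2 replicate 1, 15 rose and 8 fell, with COL5A1 and COL7A1 called in place of COL1A1 and COL3A1. Basement membrane collagen rises numbered 4 with total counts as the scaling, where COL4A4 lost its call. They also numbered 4, again without COL4A4, when siRCC2 replicates 2 or 3 or any 1 of siCtrl replicates 1 to 3 was left out. With total counts as the scaling the laminins split into 2 rises and 5 falls, and with every gene of at least 1 read kept into 2 rises and 3 falls. The count of laminin rises also depended on single libraries. It was 1 without siRCC2 replicate 2 or siCtrl replicate 3, and 2 without siRCC2 replicate 3 or siCtrl replicates 1 or 2. Falls among fibrillar collagens numbered 0 without siRCC2 replicate 2 or any 1 of siCtrl replicates 1 to 3. They also numbered 0 with the DESeq2 test and with every gene of at least 1 read kept.

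**Figure D1:**
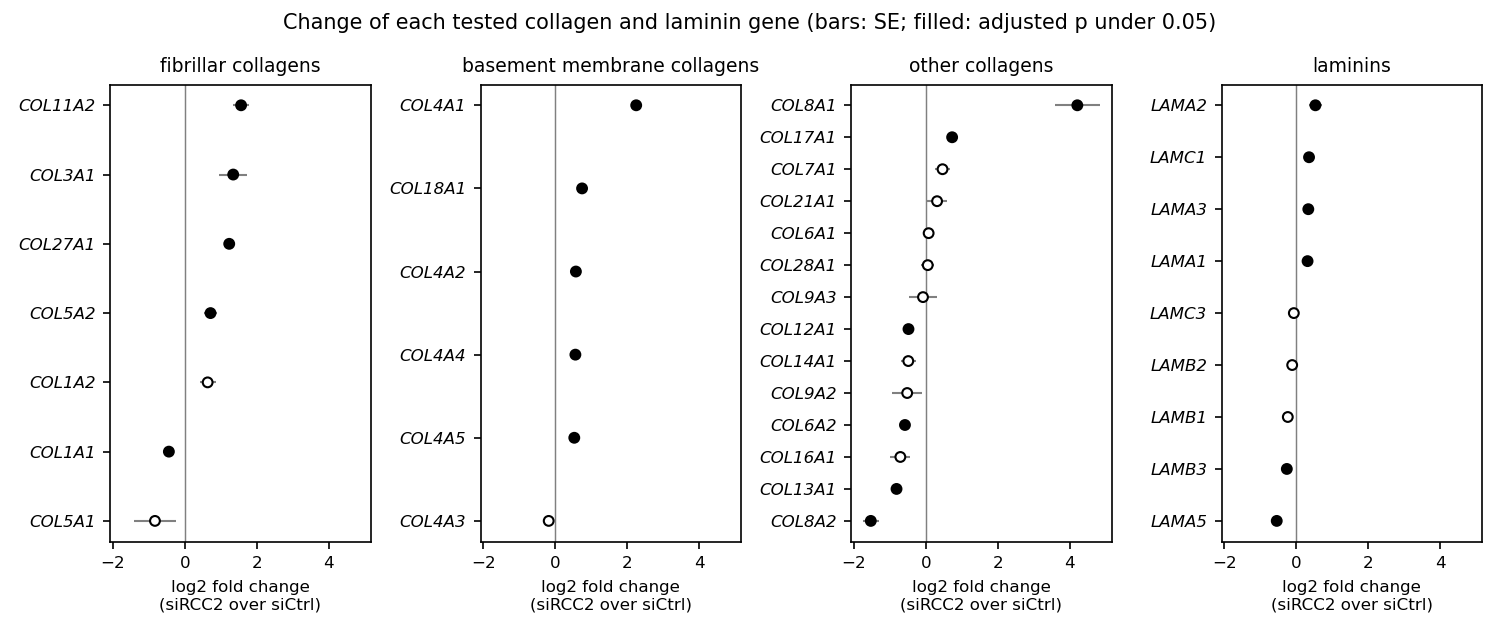
Log2 fold change, siRCC2 over siCtrl, of 36 tested genes in 4 panels by class, with bars for the standard error and filled points for adjusted p under 0.05. COL4A1, at 2.25, stands above the other basement membrane collagens, which lie between -0.18 and 0.74, and the laminins shown range from -0.54 to 0.53.

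Of the 23 calls, 15 held under each of 14 alternatives (other scalings, tests and filters, a replicate block, and each library left out), except that COL8A1 was not tested with at least 1 CPM required in 3 libraries. Among these were the rises of COL4A1, COL4A2, COL4A5, COL18A1, COL27A1, COL11A2, COL17A1, COL8A1 and LAMC1 and the falls of LAMA5, COL6A2, COL12A1, COL13A1 and COL8A2. The summed level of the 44 collagens was 1486, 1382 and 1348 CPM in siRCC2 replicates 1 to 3, against 1058, 1094 and 1061 CPM in siCtrl replicates 1 to 3. That of the 12 laminins was 3263, 3151 and 3113 CPM in siRCC2, against 3566, 3687 and 3481 CPM in siCtrl. Both sums separated the groups, upward for collagens and downward for laminins. Abundant genes weigh most in them, so they do not describe every gene of a class. COL18A1 averaged 486 CPM in siRCC2 and 290 CPM in siCtrl, and COL4A1 146 CPM in siRCC2 and 30.8 CPM in siCtrl. LAMA5 averaged 929 CPM in siRCC2 and 1353 CPM in siCtrl. The sum over all 56 genes was 4581 ± 149.95 CPM in siRCC2 and 4649 ± 121 CPM in siCtrl (SD, n = 3 each), with overlapping values.

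To compare genes with each other, levels were divided by the length of the longest annotated transcript and given as CPM per kilobase. On this scale the most abundant chain was LAMB3, with 156 ± 13.97 CPM per kilobase in siRCC2 and 187 ± 6.04 in siCtrl (SD, n = 3 each). LAMC1 had 95.3 ± 0.681 in siRCC2 and 74.5 ± 1.73 in siCtrl, and LAMA5 had 81.3 ± 4.19 in siRCC2 and 118 ± 5.85 in siCtrl. LAMC1 thus lay above LAMA5 in siRCC2 and below it in siCtrl. COL18A1 (73.7 ± 7.24 CPM per kilobase in siRCC2 and 44.0 ± 0.147 in siCtrl) and COL6A1 (49.7 ± 3.30 in siRCC2 and 47.0 ± 0.593 in siCtrl) were the 2 most abundant collagens in siRCC2, while COL6A2 (33.7 ± 4.52 in siRCC2 and 50.2 ± 3.87 in siCtrl) was above both in the siCtrl means. In siCtrl replicate 1 alone COL6A2 lay just below COL6A1 (47.0 against 47.6 CPM per kilobase). At the other end, the classical fibril chains were low: COL1A1 averaged 1.37 CPM per kilobase in siRCC2 and 1.86 in siCtrl, and COL3A1 0.184 in siRCC2 and 0.0724 in siCtrl.

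**Figure D2:**
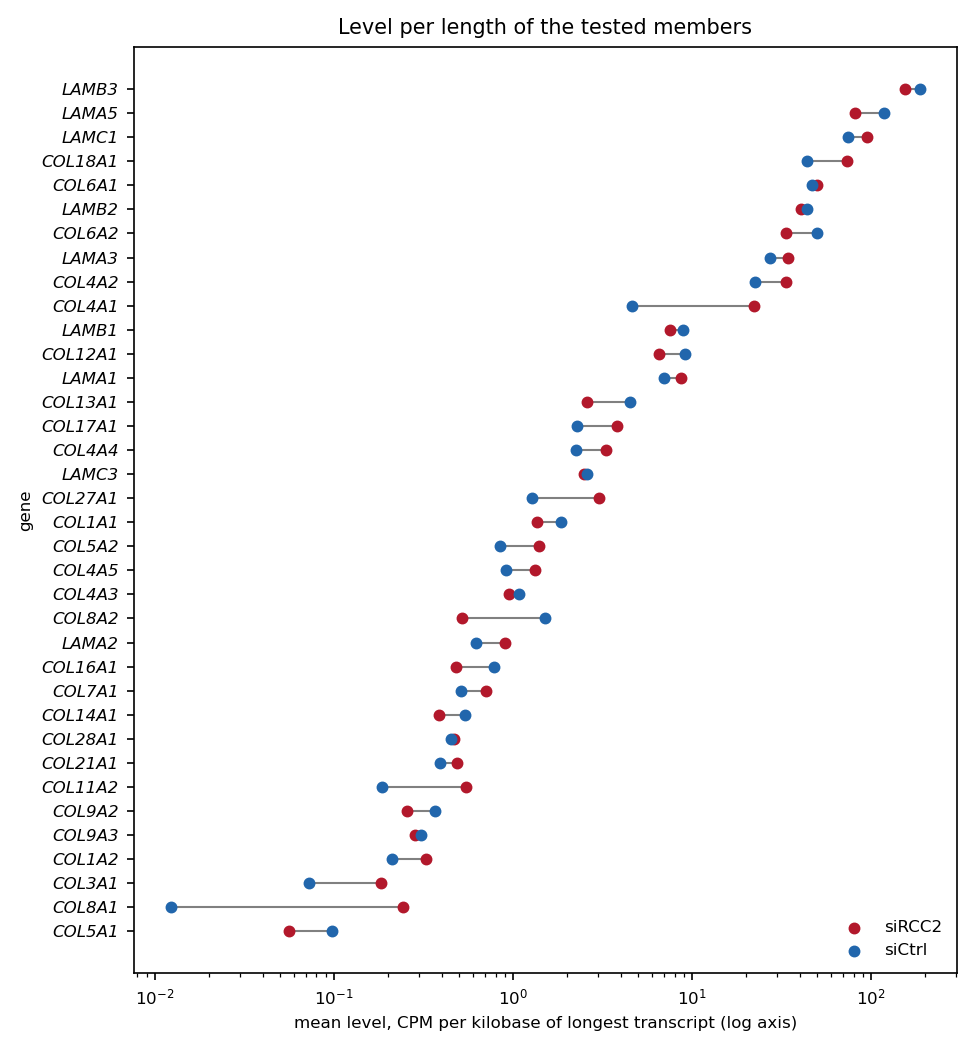
Mean level of 36 tested genes in CPM per kilobase of its longest annotated transcript, on a log axis, with siRCC2 and siCtrl means joined by a line. LAMB3, LAMA5, LAMC1, COL18A1, COL6A1, LAMB2 and COL6A2 lie at the top. Other laminin genes lie lower, LAMA2 at 0.904 in siRCC2 and 0.625 in siCtrl. The gap is widest for COL8A1 (0.242 in siRCC2 and 0.0123 in siCtrl) and wide for COL4A1 (22.1 in siRCC2 and 4.65 in siCtrl).

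Type IV collagen is encoded by 6 genes that lie in 3 pairs, head to head, each pair reading away from a shared stretch of DNA. Stretches before the transcription starts are shown for COL4A1 with COL4A2 and for COL4A3 with COL4A4, whose log2 fold changes were unlike. Whether the sequences bear on these changes was not tested. COL4A6 had too few counts to be tested, and the stretches of its pair are not shown. By RefSeq starts on GRCh38.p14, 126 bases separate COL4A1 from COL4A2, 418 bases COL4A4 from COL4A3, and 379 bases COL4A6 from COL4A5. Capitals mark a GC box (GGGCGG) or a CCAAT box (CCAAT) on either strand, and each sequence reads 5′ to 3′. The first is the whole stretch at chr13:110307158-110307283, plus strand, in the direction of COL4A2, with 1 CCAAT box and 1 GC box. The second is the 250 bases before COL4A3 at chr2:227164374-227164623, plus strand, with 2 GC boxes. The third is the 250 bases before COL4A4 at chr2:227164206-227164455, minus strand, with none of these motifs. The COL4A3 and COL4A4 windows overlap in part.
COL4A1 to COL4A2: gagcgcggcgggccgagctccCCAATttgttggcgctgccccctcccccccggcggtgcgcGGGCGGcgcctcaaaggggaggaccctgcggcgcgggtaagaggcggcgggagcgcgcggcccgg
COL4A3: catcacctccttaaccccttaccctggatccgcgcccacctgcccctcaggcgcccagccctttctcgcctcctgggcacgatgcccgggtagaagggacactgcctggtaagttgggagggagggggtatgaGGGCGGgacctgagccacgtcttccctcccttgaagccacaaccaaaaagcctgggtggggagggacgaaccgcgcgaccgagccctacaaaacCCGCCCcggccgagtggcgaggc
COL4A4: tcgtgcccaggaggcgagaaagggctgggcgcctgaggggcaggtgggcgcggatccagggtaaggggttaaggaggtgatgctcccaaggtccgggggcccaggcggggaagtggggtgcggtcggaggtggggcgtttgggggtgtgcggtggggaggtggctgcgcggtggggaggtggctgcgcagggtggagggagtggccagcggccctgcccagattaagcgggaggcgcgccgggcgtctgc

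Among the 41 members with a RefSeq promoter entry, 65.9% had a GC box within 250 bases before a start, against 46.2% of 27305 genes. A CCAAT box was present in 31.7% of them, against 37.0% of all genes, and an AP-1 site (TGANTCA) in 7.32%, against 8.06%. The motifs do not contain one another, and a match says only that the letters are there.

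COL4A1 (ENSG00000187498, chr13:110148963-110307149) encodes the alpha 1 chain of type IV collagen, which with the alpha 2 chain makes the network found in nearly all basement membranes. It had 147, 149 and 143 CPM in siRCC2 replicates 1 to 3, against 29.97, 33.0 and 29.4 CPM in siCtrl replicates 1 to 3. Every siRCC2 library was more than 4 times as high as every siCtrl library. The means were 146 ± 3.07 CPM in siRCC2 and 30.8 ± 1.92 CPM in siCtrl (SD, n = 3 each). On the log2 scale the rise was 2.25 ± 0.08 (SE; edgeR adjusted p = 2.00e-05), and over the 14 alternatives it stayed between 2.18 and 2.30.

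COL4A2 (ENSG00000134871, chr13:110305812-110513027), its partner across the 126 bases shown above, encodes the alpha 2 chain. It had 241, 212 and 202 CPM in siRCC2 libraries, against 145, 152 and 143 CPM in siCtrl libraries. The groups did not overlap, and the log2 fold change was 0.57 ± 0.08 (edgeR adjusted p = 0.00168), smaller than that of COL4A1. The ratio of COL4A1 to COL4A2 counts within a library, which does not depend on scaling between libraries, was 0.608, 0.704 and 0.706 in siRCC2 replicates 1 to 3, against 0.207, 0.216 and 0.206 in siCtrl replicates 1 to 3. On the log2 scale it was 1.68 ± 0.07 higher in siRCC2 (SE; exact permutation test, two-sided p = 0.1, the smallest that 3 libraries against 3 allow). This pair, like the others compared below, was chosen with its values known. Per length, COL4A1 stood at 0.659 of COL4A2 in siRCC2 and 0.206 of it in siCtrl. The longest transcripts of the 2 genes share 0.0% of their 50-base stretches with other genes.

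The second pair encodes the alpha 3 and alpha 4 chains, known from the filtration membrane of the kidney. COL4A4 (ENSG00000081052, chr2:227002711-227164113) had 25.2, 35.6 and 38.5 CPM in siRCC2 libraries, against 23.0, 22.1 and 22.4 CPM in siCtrl libraries, and siRCC2 replicate 1 lay close to the siCtrl values. Its log2 fold change was 0.56 ± 0.16 (edgeR adjusted p = 0.0280). The call was kept without siRCC2 replicate 1 (adjusted p = 0.000865) and lost without siRCC2 replicates 2 or 3 or without any 1 of siCtrl replicates 1 to 3 (adjusted p from 0.0668 to 0.0842). It was also lost with total counts as the scaling (adjusted p = 0.0575). COL4A3 had 7.13, 7.57 and 8.49 CPM in siRCC2 libraries, against 8.14, 9.86 and 8.35 CPM in siCtrl libraries, overlapping values with a log2 fold change of -0.18 ± 0.14 (adjusted p = 0.324). The COL4A4 to COL4A3 ratio was 3.53, 4.70 and 4.53 in siRCC2, against 2.82, 2.24 and 2.68 in siCtrl, a log2 difference of 0.72 ± 0.16 (exact permutation p = 0.1). An antisense gene that shares 120 exonic bases with COL4A3, ENSG00000236432, had 2.36, 4.74 and 4.98 CPM in siRCC2 and 1.59, 1.99 and 1.91 CPM in siCtrl. This antisense gene was higher in siRCC2 (log2 fold change 1.14, edgeR adjusted p = 0.0214). Whether counting kept the strands apart is not given in the sources used here.

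COL4A5 (ENSG00000188153, chrX:108439844-108697545), the alpha 5 chain gene, had 8.40, 8.60 and 8.81 CPM in siRCC2 libraries, against 6.35, 5.93 and 5.62 CPM in siCtrl libraries. It rose by 0.53 ± 0.12 on the log2 scale (edgeR adjusted p = 0.0107), with no overlap. Its head-to-head neighbour COL4A6 was not tested, with 4, 6 and 3 counts in siRCC2 and 2, 0 and 0 in siCtrl. Summed over the 6 type IV genes, the level was 414 ± 13.7 CPM in siRCC2 and 215 ± 7.56 CPM in siCtrl.

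COL18A1 (ENSG00000182871, chr21:45405137-45513720) encodes a basement membrane collagen that carries heparan sulfate and from which endostatin is cut. It had 534, 485 and 438 CPM in siRCC2 libraries, against 289.6, 291 and 289 CPM in siCtrl libraries. The siCtrl values were nearly equal, and all siRCC2 values lay above them, for a log2 fold change of 0.74 ± 0.08 (edgeR adjusted p = 0.000554). The folate carrier gene SLC19A1 lies on the opposite strand and shares 1401 exonic bases with it. SLC19A1 was also higher, at 152 ± 12.0 CPM in siRCC2 and 97.4 ± 12.7 CPM in siCtrl (log2 fold change 0.64, adjusted p = 0.00380), so the amount assigned to COL18A1 is uncertain. The 2 genes summed to 637 ± 58.9 CPM in siRCC2 and 387 ± 13.6 CPM in siCtrl. The related COL15A1 had at most 5 counts in any library.

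**Figure D3:**
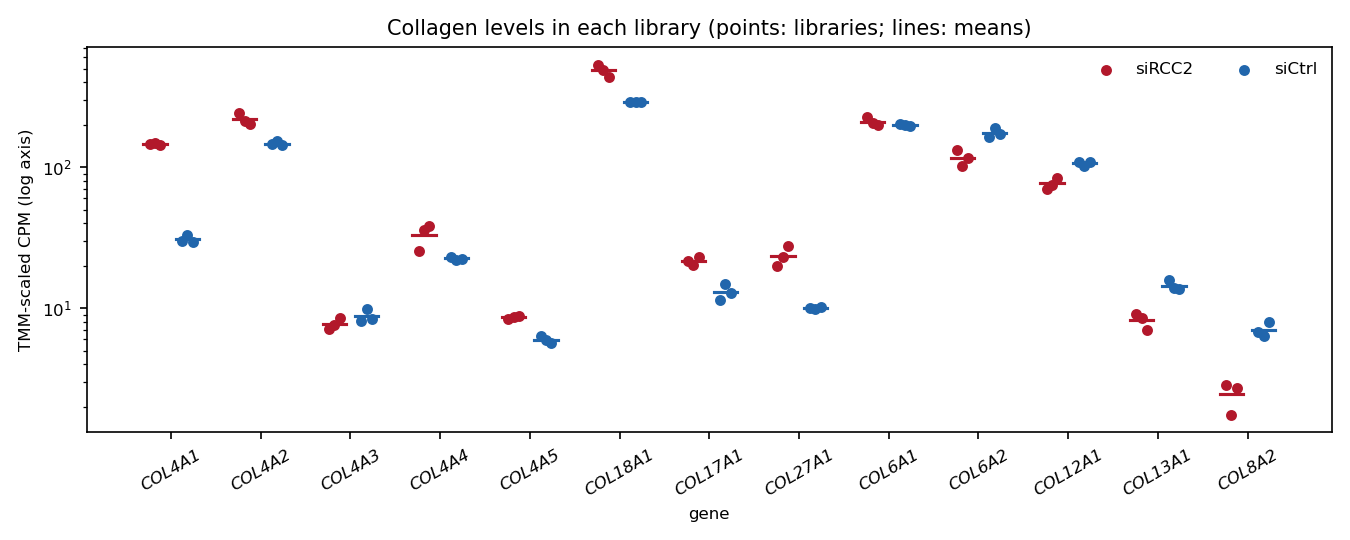
Level of 13 collagen genes in each library (points) with group means (lines), in TMM-scaled CPM on a log axis, siRCC2 left of siCtrl for each gene. The COL4A1 points lie between 143 and 149 CPM in siRCC2 and between 29.4 and 33.0 CPM in siCtrl, while the COL4A3 and COL6A1 groups overlap.

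Fibrillar collagen genes were expressed at low levels and most that changed rose. The most abundant was COL27A1 (ENSG00000196739, chr9:114155560-114312511), a fibrillar chain known from cartilage. It had 19.8, 23.0 and 27.8 CPM in siRCC2 libraries, against 9.97, 9.86 and 10.2 CPM in siCtrl libraries, a log2 fold change of 1.23 ± 0.14 (edgeR adjusted p = 0.000698). The siCtrl libraries were tightly grouped and the lowest siRCC2 library was almost double the highest of them. COL11A2, a chain of cartilage type XI collagen, had 3.14, 4.22 and 3.20 CPM in siRCC2 libraries, against 1.09, 1.35 and 1.13 CPM in siCtrl libraries, and rose by 1.56 ± 0.21 (adjusted p = 0.00130). COL5A2, a chain of the type V collagen that sets fibril width, had 8.95, 10.6 and 10.2 CPM in siRCC2 libraries, against 5.06, 5.71 and 7.32 CPM in siCtrl libraries. Its rise of 0.72 ± 0.17 (adjusted p = 0.0132) was lost without siCtrl replicate 2 (adjusted p = 0.0516). COL3A1, which lies beside COL5A2 on chromosome 2, had 18, 17 and 21 counts in siRCC2 libraries and 5, 12 and 6 in siCtrl libraries. Its log2 fold change was 1.34 ± 0.39 (adjusted p = 0.0286). The call was kept without siCtrl replicate 2, its highest control (0.0145), and lost without any 1 of siRCC2 replicates 1 to 3 or siCtrl replicates 1 and 3 (0.0544 to 0.0998).

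Type I collagen, the main collagen of bone and skin, is built from the products of COL1A1 and COL1A2, and the balance of these 2 genes differed between the groups. COL1A1 (ENSG00000108821, chr17:50183289-50201632) had 7.80, 9.27 and 10.6 CPM in siRCC2 libraries, against 11.3, 13.1 and 13.2 CPM in siCtrl libraries. It fell by 0.44 on the log2 scale, with an SE of 0.15 (edgeR adjusted p = 0.0481). This call was kept without siRCC2 replicate 3 (0.0292). It was lost without siRCC2 replicates 1 or 2 or without siCtrl replicates 1, 2 or 3 (adjusted p from 0.0646 to 0.137). The DESeq2 test (0.0559) and keeping every gene of at least 1 read (0.0569) also removed it. COL1A2 had 1.87, 2.01 and 1.99 CPM in siRCC2 libraries, against 1.14, 1.56 and 1.08 CPM in siCtrl libraries, non-overlapping values with a log2 fold change of 0.64 ± 0.22 that missed the threshold (adjusted p = 0.0526) and passed without siCtrl replicate 2 (0.0423). COL1A2 also passed narrowly with DESeq2 size factors as the scaling (0.0498), limma-voom (0.0495) and at least 1 CPM required in 3 libraries (0.0466). With the DESeq2 test it did not pass (0.181). The COL1A1 to COL1A2 count ratio was 4.16, 4.62 and 5.32 in siRCC2, against 9.91, 8.38 and 12.2 in siCtrl, a log2 difference of -1.10 ± 0.19 (SE; exact permutation p = 0.1). COL5A1 had 16, 3 and 6 counts in siRCC2, where replicate 1 alone was at the siCtrl level, and 17, 13 and 18 in siCtrl (log2 fold change -0.83 ± 0.57, adjusted p = 0.283, and -1.80 with 0.0177 without siRCC2 replicate 1).

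Type VI collagen forms beaded filaments next to basement membranes, and its molecule needs an alpha 1, an alpha 2 and 1 further kind of chain. COL6A1 did not pass, with 226, 206 and 199 CPM in siRCC2 libraries, against 202, 199 and 197 CPM in siCtrl libraries (log2 fold change 0.08 ± 0.07, edgeR adjusted p = 0.386). COL6A2, its neighbour on chromosome 21, had 133, 102 and 115 CPM in siRCC2 libraries, against 163, 189 and 170.3 CPM in siCtrl libraries. It was lower in every siRCC2 library, with a log2 fold change of -0.58 ± 0.11 (adjusted p = 0.00607). The COL6A1 to COL6A2 count ratio was 1.70, 2.02 and 1.73 in siRCC2, against 1.24, 1.05 and 1.16 in siCtrl (log2 difference 0.66 ± 0.11, exact permutation p = 0.1). The genes for that further chain were barely detected: COL6A3 had 5, 10 and 3 counts in siRCC2 and 8, 3 and 3 in siCtrl, and COL6A5 and COL6A6 had 0 in all 6 libraries.

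Type VIII collagen, a short-chain collagen of vessel walls and the cornea, has 2 genes that moved in opposite directions. COL8A1 (ENSG00000144810, chr3:99638475-99799226) had 16, 24 and 37 counts in siRCC2 libraries, against 0, 2 and 2 in siCtrl libraries. Pooled and scaled, this is a ratio of 20.3, with a 95% exact interval from 7.63 to 76.5 that covers counting error only. The fitted log2 fold change was 4.21 ± 0.62 (edgeR adjusted p = 0.00187), a value that depends on the prior count of the fit because the control counts are so low. COL8A2 (ENSG00000171812, chr1:36095236-36125220) had 2.84, 1.75 and 2.73 CPM in siRCC2 libraries, against 6.80, 6.31 and 7.93 CPM in siCtrl libraries, all siRCC2 values being under the lowest siCtrl value. Its log2 fold change was -1.53 ± 0.22 (adjusted p = 0.00157).

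Transmembrane and anchoring collagens tie epithelial cells to their membrane. COL17A1, the collagen of hemidesmosomes, which bind laminin beneath the cell, had 21.4, 20.2 and 23.2 CPM in siRCC2 libraries, against 11.4, 14.7 and 12.9 CPM in siCtrl libraries. It rose by 0.73 ± 0.13 on the log2 scale (edgeR adjusted p = 0.00380). COL7A1, which makes the anchoring fibrils below, had 5.14, 7.83 and 6.66 CPM in siRCC2 libraries, against 4.61, 5.77 and 3.86 CPM in siCtrl libraries, and did not pass (adjusted p = 0.125). It passed without siRCC2 replicate 1 (0.0490). COL13A1, another transmembrane collagen, had 9.13, 8.55 and 6.97 CPM in siRCC2 libraries, against 15.8, 13.9 and 13.6 CPM in siCtrl libraries, with a log2 fold change of -0.81 ± 0.14 (adjusted p = 0.00383).

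COL12A1 encodes a collagen that decorates fibrils. It had 70.4, 75.0 and 84.3 CPM in siRCC2 libraries, against 109, 102 and 109 CPM in siCtrl libraries, lower in each siRCC2 library (log2 fold change -0.48 ± 0.09, edgeR adjusted p = 0.00445). The other fibril-associated genes with enough counts did not pass. COL16A1 averaged 2.77 ± 0.948 CPM in siRCC2 and 4.51 ± 0.686 CPM in siCtrl (adjusted p = 0.0816), and COL14A1 averaged 2.50 ± 0.531 CPM in siRCC2 and 3.51 ± 0.243 CPM in siCtrl (adjusted p = 0.0923). COL21A1 (0.31), COL9A2 (-0.52) and COL9A3 (-0.08) had log2 fold changes smaller than 1.5 times their standard errors, as did COL28A1 (0.06), a collagen of another class.

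LAMA3 and LAMB3, whose chains occur together in an epithelial laminin, moved in different directions. LAMB3, the beta 3 chain gene, had 738, 649.8 and 623 CPM in siRCC2 libraries, against 802, 830.4 and 778 CPM in siCtrl libraries, with a log2 fold change of -0.26 ± 0.08 (adjusted p = 0.0320). Its call was kept without siRCC2 replicate 1 (0.00297). It was lost without siRCC2 replicates 2 or 3 or any 1 of siCtrl replicates 1 to 3 (adjusted p from 0.0683 to 0.208). The DESeq2 test (0.0852), DESeq2 size factors as the scaling (0.0671) and at least 1 CPM required in 3 libraries (0.0651) also removed it. LAMA3, the alpha 3 chain gene, went the other way, with 313, 376 and 412 CPM in siRCC2 libraries, against 278, 295 and 299.8 CPM in siCtrl libraries. Its rise of 0.33 ± 0.10 (adjusted p = 0.0374) held without siRCC2 replicate 1, its lowest siRCC2 library (0.00246). The rise was lost without siRCC2 replicates 2 or 3 or any 1 of siCtrl replicates 1 to 3 (0.0755 to 0.120). It was also lost with total counts as the scaling (0.106) and with every gene of at least 1 read kept (0.0624).

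Per length, these 2 genes were far from equal. LAMB3 stood at 156 ± 13.97 CPM per kilobase in siRCC2 and 187 ± 6.04 in siCtrl, and LAMA3 at 34.4 ± 4.69 in siRCC2 and 27.3 ± 1.06 in siCtrl. LAMA3 has a long and a short transcript form, so its value per length depends on which is present. The LAMA3 to LAMB3 count ratio was 0.424, 0.579 and 0.661 in siRCC2, against 0.347, 0.355 and 0.385 in siCtrl, a log2 difference of 0.59 ± 0.19 (SE; exact permutation p = 0.1).

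**Figure D4:**
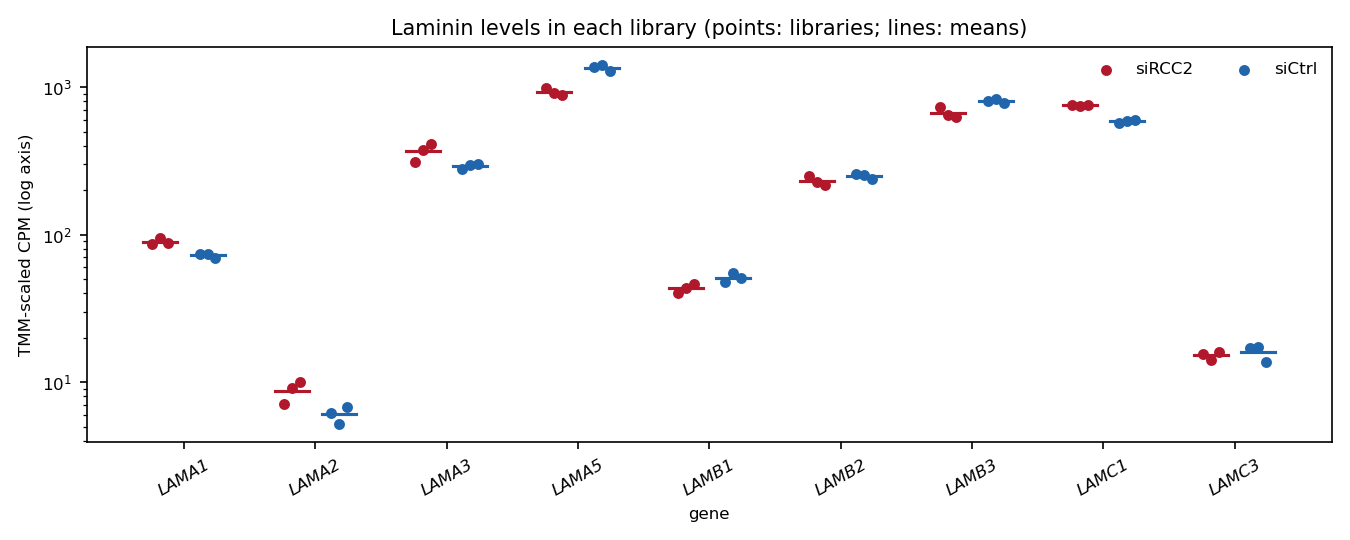
Level of 9 laminin genes in each library (points) with group means (lines), in TMM-scaled CPM on a log axis, siRCC2 left of siCtrl for each gene. LAMA5 lies between 888 and 982 CPM in siRCC2 and between 1281 and 1414 CPM in siCtrl, and the LAMB2 and LAMC3 groups overlap.

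LAMA5 (ENSG00000130702, chr20:62307955-62367312), the alpha chain gene of laminin-511 and the member with the most counts, was lower in siRCC2. It had 982, 919 and 888 CPM in siRCC2 libraries, against 1363, 1414 and 1281 CPM in siCtrl libraries, without overlap. The log2 fold change was -0.54 ± 0.07 (edgeR adjusted p = 0.000942). ADRM1, on the opposite strand, shares 244 exonic bases with LAMA5 and had 215 ± 24.7 CPM in siRCC2 and 230.4 ± 11.4 CPM in siCtrl (adjusted p = 0.413). LAMC1 (ENSG00000135862, chr1:183023460-183145592), the common gamma chain gene, rose, with 757, 746 and 753 CPM in siRCC2 libraries, against 572, 593 and 598 CPM in siCtrl libraries (log2 fold change 0.35 ± 0.05, adjusted p = 0.00204). LAMB1 and LAMB2, either of which can supply the beta chain, did not pass. LAMB1 had 40.0, 43.8 and 46.4 CPM in siRCC2 libraries, against 48.0, 54.8 and 50.4 CPM in siCtrl libraries (adjusted p = 0.0838), and LAMB2 had 249, 228 and 217 CPM in siRCC2 libraries, against 258, 253 and 239 CPM in siCtrl libraries (adjusted p = 0.261). With total counts as the scaling both passed, each lower in siRCC2 (adjusted p of 0.0482 for LAMB1 and 0.0431 for LAMB2). LAMB1 shares 70 exonic bases with DLD on the opposite strand. DLD was also lower, at 42.7 ± 5.23 CPM in siRCC2 and 61.4 ± 7.28 CPM in siCtrl (log2 fold change -0.52, edgeR adjusted p = 0.0150). Per length, LAMB2 at 40.7 ± 2.94 CPM per kilobase in siRCC2 and 44.1 ± 1.78 in siCtrl was the more abundant of the pair, with LAMB1 at 7.52 ± 0.561 in siRCC2 and 8.86 ± 0.594 in siCtrl.

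LAMA5 and LAMC1, whose chains meet in laminin-511, went opposite ways. The LAMA5 to LAMC1 count ratio was 1.30, 1.23 and 1.18 in siRCC2, against 2.38, 2.38 and 2.14 in siCtrl, a log2 difference of -0.90 ± 0.07 (SE; exact permutation p = 0.1). For the alpha chains LAMA5 over LAMA3 the ratio was 3.13, 2.44 and 2.15 in siRCC2, against 4.90, 4.79 and 4.27 in siCtrl, a log2 difference of -0.87 ± 0.17 (exact permutation p = 0.1). In each of the 7 gene pairs compared this way the groups did not overlap, and the adjusted p over the 7 was 0.1, the smallest the design can give. The pairs were chosen with their values known, so neither the separation nor these p-values can serve as support.

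**Figure D5:**
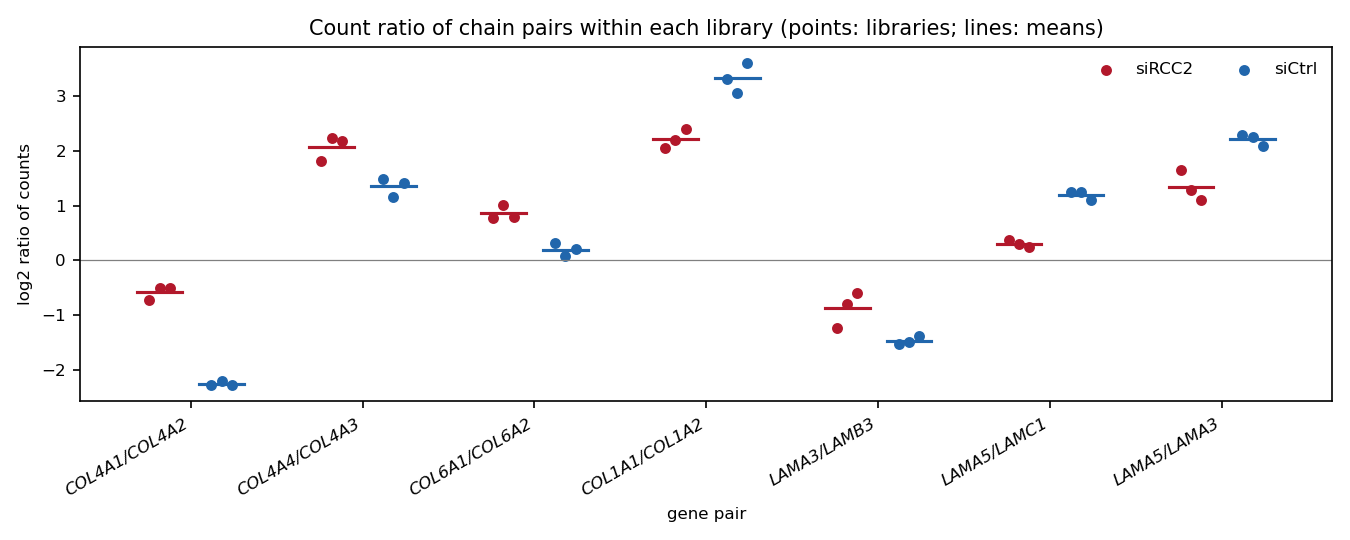
Log2 ratio of the counts of 2 genes within each library for 7 pairs (points: libraries; lines: group means), siRCC2 left of siCtrl for each pair. Of these the means differ most for COL4A1/COL4A2, at -0.58 in siRCC2 and -2.25 in siCtrl, and next for COL1A1/COL1A2, at 2.22 in siRCC2 and 3.33 in siCtrl.

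The remaining laminins were less abundant. LAMA1, an alpha chain of embryonic basement membranes, had 86.6, 94.7 and 88.0 CPM in siRCC2 libraries, against 74.4, 73.3 and 68.9 CPM in siCtrl libraries. Its rise of 0.31 ± 0.07 (edgeR adjusted p = 0.0132) was lost without siRCC2 replicate 2 (0.0654) or siCtrl replicate 3 (0.0581). LAMA2, the alpha chain of muscle laminin, had 7.13, 9.17 and 9.96 CPM in siRCC2 libraries, against 6.20, 5.17 and 6.80 CPM in siCtrl libraries. Its rise of 0.53 ± 0.18 (adjusted p = 0.0459) was kept without siRCC2 replicate 1 (0.0156). The rise was lost without siRCC2 replicates 2 or 3 or any 1 of siCtrl replicates 1 to 3 (0.0646 to 0.142). It was also lost with total counts as the scaling (0.0865), every gene of at least 1 read kept (0.0811) and the replicate block (0.0639). LAMC3 did not pass, at 15.2 ± 0.933 CPM in siRCC2 and 16.0 ± 1.96 CPM in siCtrl (adjusted p = 0.699).

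The 19 genes that were not tested had at most 12 counts in any library. COL22A1, COL10A1, COL6A5, COL6A6 and LAMB4 had 0 in all 6, where 3 counts would be between 0.149 and 0.181 CPM. COL5A3, a type V chain gene, had 2, 1 and 0 counts in siRCC2 and 6, 8 and 6 in siCtrl, and LAMA4, the alpha chain of vessel laminins, had 0, 5 and 0 in siRCC2 and 0 in each siCtrl library. The others were COL2A1, COL4A6, COL6A3, COL9A1, COL11A1, COL15A1, COL19A1, COL20A1, COL23A1, COL24A1, COL25A1 and COL26A1.

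Genes that modify and fold collagen chains in the endoplasmic reticulum changed in both directions, with 6 of 18 tested higher and 3 lower (50% called, beside 41.8% of all tested genes). P4HB, the shared subunit of the prolyl 4-hydroxylases that stabilise the helix, had 1025, 1036 and 899.5 CPM in siRCC2 libraries, against 426, 389.9 and 396 CPM in siCtrl libraries (log2 fold change 1.29 ± 0.08, edgeR adjusted p = 6.81e-05). The collagen galactosyltransferase gene COLGALT1 averaged 414 ± 18.9 CPM in siRCC2 and 193 ± 4.95 CPM in siCtrl, a rise of 1.10 ± 0.06. Its relative COLGALT2 averaged 6.01 ± 0.262 CPM in siRCC2 and 15.6 ± 1.19 CPM in siCtrl (-1.38 ± 0.12). PPIB, a prolyl isomerase for collagen, rose (0.80 ± 0.10), while CRTAP, which acts with it in the prolyl 3-hydroxylation complex, fell (-0.69 ± 0.07). P4HB and PPIB serve many proteins besides collagen.

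Of the genes that process and cross-link collagen outside the cell, 5 of 12 tested rose and 3 fell (66.7% called, beside 41.8% of all tested genes). PXDN, whose peroxidase forms the sulfilimine bonds of the type IV network, had 96.2, 86.0 and 84.4 CPM in siRCC2 libraries, against 37.0, 36.3 and 37.1 CPM in siCtrl libraries, and rose by 1.27 ± 0.08 (edgeR adjusted p = 8.22e-05). BMP1, a procollagen C-proteinase, averaged 219 ± 17.9 CPM in siRCC2 and 124 ± 5.39 CPM in siCtrl (0.81 ± 0.08). The enhancer of that protease PCOLCE2 (0.45 ± 0.12) and the lysyl oxidase LOX (0.73 ± 0.21) rose and LOXL3 fell (-0.81 ± 0.18). The call of LOX was lost without siRCC2 replicates 2 or 3 or siCtrl replicates 2 or 3 (adjusted p from 0.0597 to 0.0992), and that of PCOLCE2 without siCtrl replicates 2 or 3 (0.0772 and 0.0731).

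Of the other basement membrane components, 2 of 10 tested rose and 3 fell (50% called, beside 41.8% of all tested genes). The laminin-binding netrin gene NTN4 averaged 147 ± 22.9 CPM in siRCC2 and 75.2 ± 1.77 CPM in siCtrl (0.97 ± 0.12, edgeR adjusted p = 0.000876). HSPG2, which encodes the proteoglycan perlecan, rose by 0.29 ± 0.06, a call lost without siRCC2 replicate 2 (0.0560) or siCtrl replicate 3 (0.0525). NID2, a nidogen that links the laminin and collagen networks, averaged 2.89 ± 0.723 CPM in siRCC2 and 8.98 ± 0.603 CPM in siCtrl (-1.63 ± 0.20). FREM2 (-1.79 ± 0.19) and TINAGL1 (-0.65 ± 0.09) fell too. Among 19 tested collagen and laminin receptors and their partners, 4 rose and 3 fell, a share of 36.8% beside 41.8% of all genes. The laminin receptor genes ITGA7 (1.93, 2.99 and 1.78 CPM in siRCC2 libraries, against 11.7, 11.2 and 11.9 CPM in siCtrl libraries) and BCAM, which binds laminin alpha 5 (103 ± 5.60 CPM in siRCC2 and 150.3 ± 1.48 CPM in siCtrl), were lower, with log2 fold changes of -2.36 ± 0.21 and -0.55 ± 0.07. The syndecan gene SDC4 (1.22 ± 0.08), PLEC of the hemidesmosome (0.45 ± 0.07) and the collagen-binding integrin gene ITGA10 (1.06 ± 0.24) rose.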

How the data were processed

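RNA was sequenced from 3 siRCC2 and 3 siCtrl libraries of DU145 cells, grouped by their titles. Per the labels' protocols, total RNA was turned into libraries using an MGIEasy kit. Per the submitters' processing notes, Bowtie2, RSEM and DESeq2 were used with GRCh38, no versions being given. The authors deposited 1 table of whole-number counts per gene for each library. RSEM estimates reads shared among genes, and they may have been rounded before deposit. Strand handling is not given in the sources used here.

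The deposited counts were tested with edgeR 4.0.16 in R 4.3.3. Genes were kept by filterByExpr, scaled by TMM and compared by the quasi-likelihood F-test, p-values being adjusted by Benjamini and Hochberg across the 16536 genes tested (threshold 0.05). The common biological coefficient of variation was 16.6%. Fold changes are siRCC2 over siCtrl, and each SE was taken as the size of that log2 value over the root of its F statistic. The test was tried on simulated counts. No 2 replicates of a group agreed within sampling noise (chi-square over its degrees of freedom, 9.56 to 31.9), and each was counted as 1 sample. Intervals and floors cover counting error only.

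The members, the related gene lists and the tests were chosen with earlier results of these data known. Every tested member is named except 1, which is not reported here, as are up to 5 genes of each related list with the smallest p. Transcript lengths, strands, exon overlaps and shared 50-base stretches came from GENCODE 29 (GRCh38), which holds all 56 genes, 45 at identical coordinates. Promoters came from RefSeq, GRCh38.p14. Coordinates of genes are those of the deposited files. Alternatives used DESeq2 1.42.0 and limma 3.58.1. Figures were drawn with matplotlib 3.10.9.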

Additional observations from a re-analysis of the deposited data

How the results depend on the processing

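The counts of members called, 15 higher and 8 lower, lay between 10 and 16 and between 6 and 10 over the 14 alternatives, within 1.5 times throughout. Leaving out each library gave 10 to 15 higher and 6 to 8 lower. With the replicate block 13 rose and 8 fell, the block removing the calls of COL3A1 (adjusted p = 0.0644) and LAMA2 (0.0639) and, among related genes, LOX (0.0766), and it changed no other call among the 58 genes for which the alternatives were run. Libraries with the same number did not deviate together (correlations 0.06, -0.04 and 0.10), so the numbers were not taken to pair them. Total counts as the scaling gave 12 higher and 10 lower and a median over all genes of -0.08. The median over the members lay between 0.01 and 0.20. Directions turned only for genes that did not pass: COL28A1, at -0.013 with total counts and between -0.023 and 0.15 over the left-out libraries, and COL9A3, between -0.26 and 0.20 over the left-out libraries. With DESeq2 the calls of COL1A1 (0.0559), COL3A1 (0.0673) and LAMB3 (0.0852) were lost. COL3A1, COL5A1, COL8A1, COL9A2 and COL9A3 averaged under 1 CPM over all 6 libraries, with 0 to 37 counts in a library, which limits their precision.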

Other observations

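In 2 receptor genes of the related lists a single library differed from the rest. DAG1, which encodes the laminin receptor dystroglycan, had 810, 534 and 796 counts in siRCC2 replicates 1 to 3, against 577, 4213 and 451 in siCtrl replicates 1 to 3. The syndecan gene SDC1 had 3643, 4239 and 3848 counts in siRCC2, against 2290, 5122 and 4867 in siCtrl. DST, which encodes a hemidesmosomal linker to keratin and has a very long transcript, had 1241, 2645 and 4385 counts in siRCC2, against 5409, 6312 and 8588 in siCtrl. Its edgeR adjusted p was 0.0359, its siRCC2 libraries lay far apart, and the alternatives were not run for it. These were named after their values were seen.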
